A study of Mus musculus with 12 samples.

Results

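The genes described here are 8 enzymes of heme synthesis (Alas1, Alas2, Alad, Uros, Urod, Cpox, Ppox and Fech) and the alpha globin gene Hba-a1, 9 of the 17097 genes measured. They were chosen by name. Each was read from the probe set annotated to that gene alone with the highest mean level over the 12 arrays. The arrays carry 18 probe sets for these genes. A single probe set stood for 4 of the genes, and 5 genes had several.

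Liver RNA came from adult C57BL/6 wildtype mice and from adult Socs2-null mice kept on that background, which lack Socs2, a suppressor of cytokine signalling that restrains growth hormone responses. Unoperated mice of both genotypes gave the 0 h groups. The others were sampled 24 or 36 h after removal of 2/3 of the liver. Each of the 6 groups has 2 arrays, and each array was hybridized with RNA pooled from 3 animals, so a value is already an average over animals and the spread within a group is that between 2 pools. No sham-operated group was analysed here, so time after hepatectomy and the effects of surgery itself cannot be told apart.

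Heme is built from glycine and succinyl-CoA by enzymes that work partly in mitochondria and partly in the cytosol. The first and rate-limiting step has 2 genes: Alas1, used in liver and most other tissues and held down by heme itself, and the X-linked Alas2, used in erythroid cells. Liver makes heme largely for cytochrome P450 enzymes, while erythroid cells make it for hemoglobin, of which alpha globin is a subunit. The enzymes between the first step and Fech, the ferrochelatase that inserts iron, are shared by both tissues. One further enzyme of the pathway is not analysed here.

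The sequences before the start sites are given for the genes of the first step and alpha globin. RefSeq (GRCm38.p6) places Alas1 at chr9:106233455-106247954, Alas2 at chrX:150547417-150570622 and Hba-a1 at chr11:32283672-32284486. The 250 bases upstream of their annotated starts are given 5′ to 3′ on the gene's strand, from chr9:106247955-106248204 (minus strand, the first of the starts listed for Alas1), chrX:150547167-150547416 (plus strand) and chr11:32283422-32283671 (plus strand). Capitals mark matches on either strand to GATAA, the core bound by GATA factors, and to CACCC, the box bound by KLF factors.
Alas1: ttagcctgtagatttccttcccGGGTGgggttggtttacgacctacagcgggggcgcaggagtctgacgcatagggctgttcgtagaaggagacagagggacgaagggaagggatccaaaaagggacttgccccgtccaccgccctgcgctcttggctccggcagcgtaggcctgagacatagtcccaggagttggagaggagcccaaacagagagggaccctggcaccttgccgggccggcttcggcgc
Alas2: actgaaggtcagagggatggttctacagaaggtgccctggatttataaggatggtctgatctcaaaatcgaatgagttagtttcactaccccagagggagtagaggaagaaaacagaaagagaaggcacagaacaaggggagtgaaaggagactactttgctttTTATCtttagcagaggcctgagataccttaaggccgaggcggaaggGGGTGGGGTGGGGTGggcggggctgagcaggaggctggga
Hba-a1: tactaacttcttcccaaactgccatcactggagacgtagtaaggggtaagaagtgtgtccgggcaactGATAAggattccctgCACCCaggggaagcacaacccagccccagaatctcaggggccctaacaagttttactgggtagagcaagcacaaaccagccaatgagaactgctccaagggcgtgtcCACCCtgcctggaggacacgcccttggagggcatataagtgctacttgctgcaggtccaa

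Start windows were found for 8 of the 9 genes, 11 in all. The Alas2 window held 1 GATA core, 86 to 82 bases upstream of the start, and 3 CACCC boxes side by side on the reverse strand between 40 and 26 bases upstream. Hba-a1 had 1 GATA core, 182 to 178 bases upstream, and 2 CACCC boxes. In the Alas1 window there was 1 CACCC box and 0 GATA cores. The motifs were not confined to the erythroid genes: the Cpox window held 1 GATA core, also 86 to 82 bases upstream, and 4 CACCC boxes, and a window of Uros held 1 GATA core. These letters are common: 22.6% of 32851 mouse start windows of the same length held a GATAA and 52.0% a CACCC.

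The mouse genome carries 2 nearly identical alpha globin genes. The windows of 300 bases around the starts of Hba-a1 and Hba-a2 share an identical run of 297 bases, and signal assigned to Hba-a1 may include its copy.

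The deposited values are intensities on a linear scale, from 1 to 24717 over 45141 probe sets. Correlations of the 2 arrays of a group were 0.985 to 0.996 over the log2 values of 17097 genes, 1 probe set each, against 0.948 to 0.996 for other pairs. Socs2 itself measured 116 to 546 in the 6 wildtype arrays and 23.2 to 29.5 in the 6 Socs2-null arrays, and all 6 of the latter were dimmer than the brightest of the 17 tag controls. All 9 probe sets used here lay above every tag control on all 12 arrays. The 18 hybridization controls, added at hybridization, averaged 9.86 to 9.98 (log2) at 0 h, 9.34 to 9.90 at 24 h and 9.01 to 9.23 at 36 h, so their level moved with time.

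After hepatectomy the erythroid Alas2 and the alpha globin gene fell to less than 0.5 of their unoperated level in both genotypes, and Fech fell less. Hepatic Alas1 was higher in every operated wildtype array than in the unoperated ones, but its change did not pass the test. Of the 9 genes, 3 fell at 24 h in wildtype, where 15.6% of all genes were called lower, 10.2% higher and 25.8% in either direction. In Socs2-null livers 3 fell at 24 h, against 13.5% of all genes lower, 10.8% higher and 24.2% in either direction. At 36 h, 2 fell and 1 rose in wildtype (9.5% of all genes lower, 5.69% higher, 15.2% in all), and 3 fell in Socs2-null (10.1% lower, 9.84% higher, 20% in all). A gene was called when limma's adjusted p, taken over all 17097 genes, was below 0.05, and changes are log2 differences of intensity plus 16. The median change of the 9 genes in wildtype was -0.34 at 24 h and -0.19 at 36 h, beside -0.08 and -0.06 over all genes. In Socs2-null it was -0.15 and -0.30, beside -0.04 and -0.03. The comparisons at 24 and 36 h share their unoperated arrays.

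**Figure D1:**
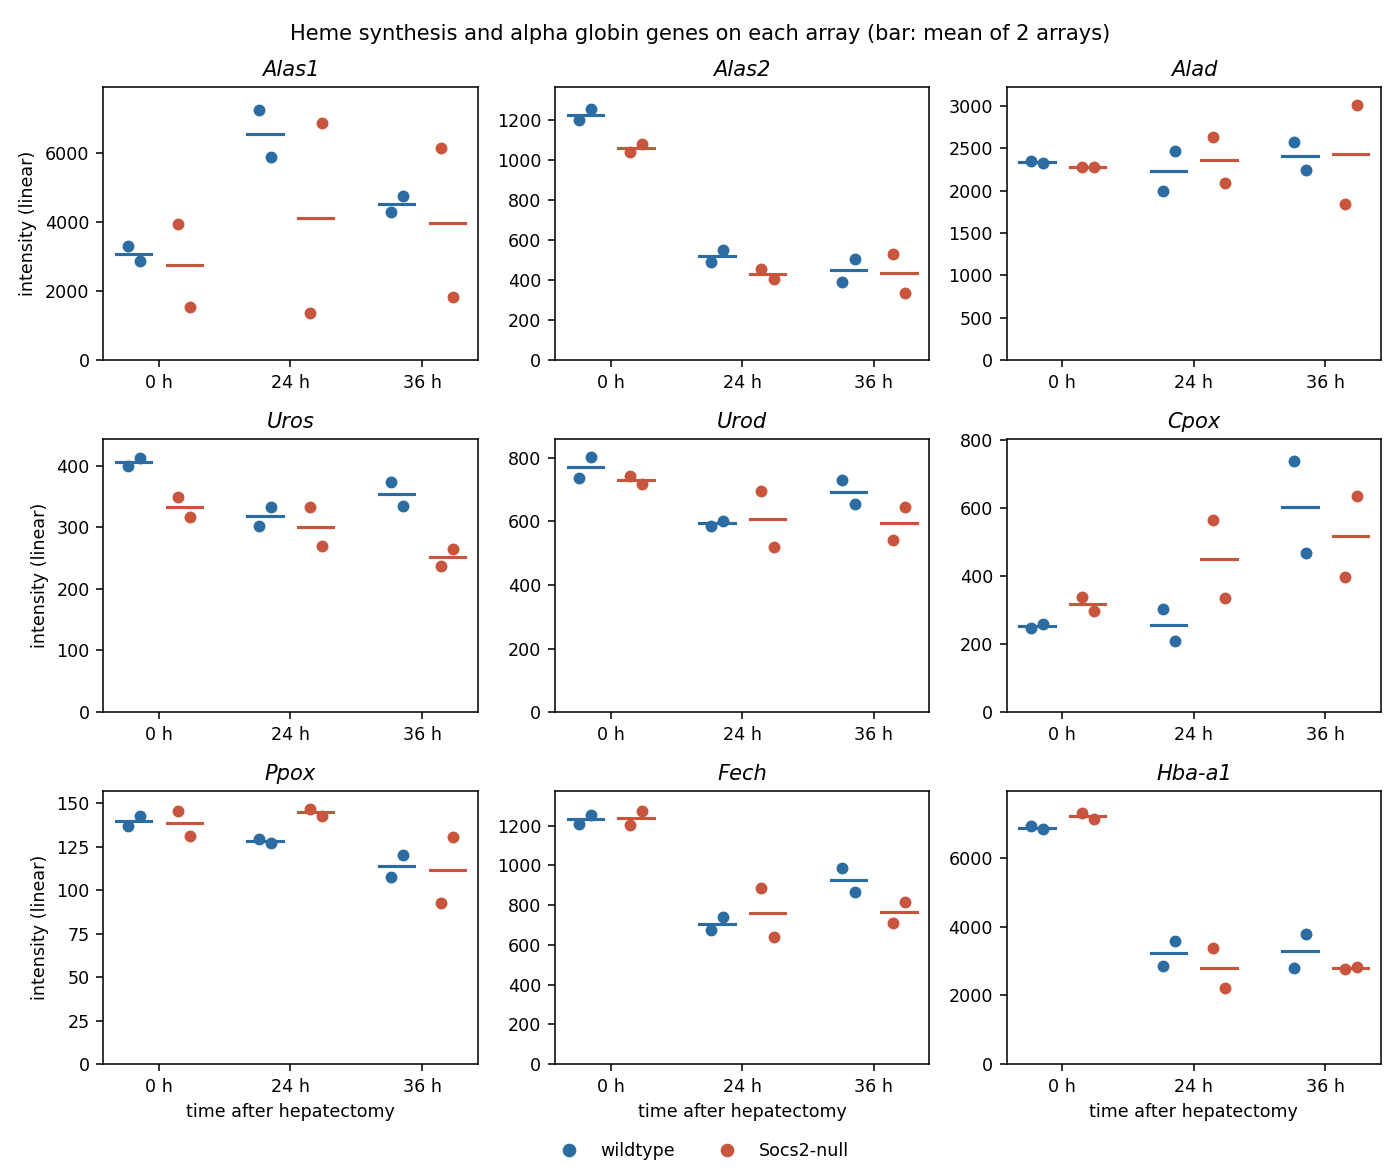
Linear intensity of the 9 genes on each of the 12 arrays by hours after hepatectomy, wildtype in blue and Socs2-null in red, with a bar at the mean of the 2 arrays of a group; each panel has its own axis from 0. Alas2, Fech and Hba-a1 are highest on the 4 unoperated arrays, and the 2 Socs2-null arrays of Alas1 lie far apart at each time.

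Alas2, the erythroid form of the first enzyme, measured 1199 and 1252 in the 2 unoperated wildtype pools and 1042 and 1078 in the Socs2-null pools. It measured 491 and 551 at 24 h in wildtype, 455 and 406 at 24 h in Socs2-null, 392 and 507 at 36 h in wildtype and 532 and 334 at 36 h in Socs2-null. Every operated array lay below every unoperated one. The fall in wildtype was 2.32-fold at 24 h (log2 change -1.21 ± 0.19, SE, adjusted p = 0.00204) and 2.69-fold at 36 h (-1.43 ± 0.19, adjusted p = 0.00112). Socs2-null livers fell 2.41-fold at 24 h (-1.27 ± 0.19, adjusted p = 0.00126) and 2.46-fold at 36 h (-1.30 ± 0.19, adjusted p = 0.00124). In order, the group means ± SD (n = 2) were 1226 ± 37.4 in unoperated wildtype, 1059.7 ± 25.4 in unoperated Socs2-null, 521 ± 42.6 in wildtype at 24 h, 449 ± 81.9 in wildtype at 36 h, 433 ± 139.6 in Socs2-null at 36 h and 430.1 ± 34.5 in Socs2-null at 24 h. The arrays of the 3 lowest groups interleaved. With the hybridization controls as a covariate the change at 36 h was -1.46 in wildtype (limma adjusted p = 0.115) and -1.33 in Socs2-null (adjusted p = 0.0948), so that neither was called. Neither change was smaller than without the covariate. The controls were at 9.86 to 9.98 (log2) at 0 h and 9.01 to 9.23 at 36 h, so this covariate and time cannot be told apart well.

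Hba-a1, which encodes the alpha chain of adult hemoglobin, measured 6917 and 6856 in unoperated wildtype and 7311 and 7135 in unoperated Socs2-null pools. It dropped to 2859.9 and 3591 in wildtype and 3369 and 2225 in Socs2-null at 24 h, and to 2809.6 and 3792 in wildtype and 2766 and 2821 in Socs2-null at 36 h. The operated arrays all lay below the unoperated ones. The fold decreases were 2.14 (-1.10 ± 0.19, adjusted p = 0.00284) and 2.10 (-1.07 ± 0.19, adjusted p = 0.00435) in wildtype at 24 and 36 h, and 2.63 (-1.39 ± 0.19, adjusted p = 0.000731) and 2.58 (-1.37 ± 0.19, adjusted p = 0.000825) in Socs2-null. Both other probe sets for this gene were called lower in each of the 4 comparisons, the dimmer with a log2 change of -1.65 ± 0.18 and the brighter with -1.07 ± 0.21 at 24 h in wildtype. Group means ± SD (n = 2) ran from 7223 ± 125 in unoperated Socs2-null and 6887 ± 42.9 in unoperated wildtype down to 3301 ± 695 in wildtype at 36 h, 3225 ± 517 in wildtype at 24 h, 2797 ± 808 in Socs2-null at 24 h and 2793 ± 39.1 in Socs2-null at 36 h. The operated groups overlapped, except that Socs2-null at 36 h lay just below wildtype at 24 h.

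Alas1, the hepatic form of the first enzyme, measured 3309 and 2866 in unoperated wildtype, 7249 and 5906 at 24 h and 4304 and 4763 at 36 h. The 3 wildtype groups did not overlap, with the highest values at 24 h. Socs2-null pools measured 3956 and 1539.9 unoperated, 1367 and 6873 at 24 h and 6144 and 1819 at 36 h. All 3 Socs2-null groups overlapped each other and the wildtype group of the same time. In wildtype the 24 h change was 2.12-fold (1.08 ± 0.82, adjusted p = 0.362) and that at 36 h 1.47-fold (0.55 ± 0.82, adjusted p = 0.693), with 95% intervals from -0.80 to 2.97 and from -1.33 to 2.44. In Socs2-null the changes were 0.31 ± 0.82 (adjusted p = 0.816) and 0.44 ± 0.82 (adjusted p = 0.756). Because the fit shares 1 estimate of spread over all 6 groups, the Socs2-null scatter sets the error of the wildtype change too. A fit on the 4 wildtype arrays of the comparison alone called Alas1 higher, with an adjusted p of 0.000609 for 24 h and 0.0204 for 36 h.

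**Figure D2:**
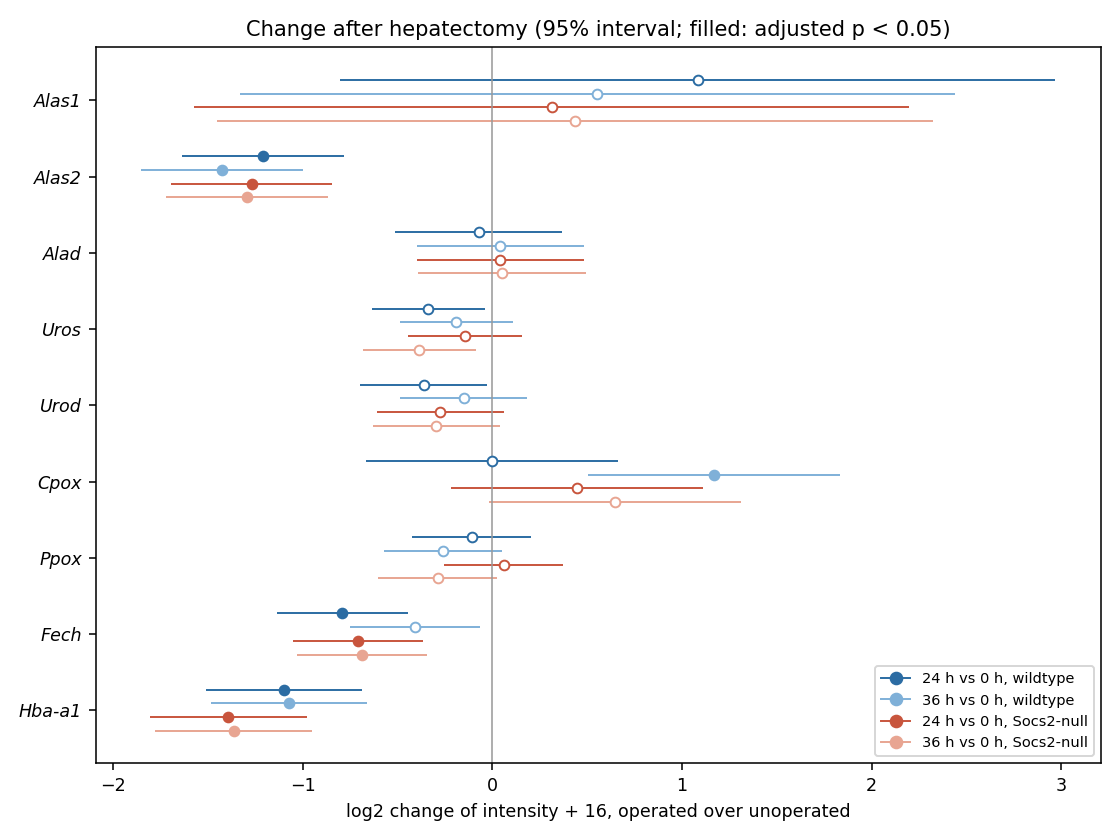
Log2 change of intensity plus 16 against the unoperated group of the same genotype for the 9 genes, with 95% intervals from limma; blue shades are wildtype and red shades Socs2-null at 24 and 36 h, and filled points have an adjusted p under 0.05. All 4 points of Alas2 and of Hba-a1 are filled and lie between -1.43 and -1.07, while the intervals of Alas1 include 0.

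Fech, which completes heme by inserting iron, measured 1207 and 1256 in unoperated wildtype and 1201 and 1276 in unoperated Socs2-null. It was 672 and 738 in wildtype and 885 and 637 in Socs2-null at 24 h, and 986 and 864 in wildtype and 712 and 815 in Socs2-null at 36 h. The 8 operated arrays all lay below the 4 unoperated ones, and in wildtype the 36 h arrays lay above the 24 h arrays. Fech fell 1.73-fold at 24 h in wildtype (-0.79 ± 0.16, adjusted p = 0.0053), 1.63-fold at 24 h in Socs2-null (-0.71 ± 0.16, adjusted p = 0.00809) and 1.61-fold at 36 h in Socs2-null (-0.69 ± 0.16, adjusted p = 0.0106). At 36 h in wildtype the change of -0.41 ± 0.16 did not pass the test (adjusted p = 0.103). Of its 3 other probe sets, 2 were called lower in the same 3 comparisons; 1 of those was also called lower at 36 h in wildtype (-0.62 ± 0.13, adjusted p = 0.00849), and the remaining set was near the tag controls. Single arrays decided some of these calls. The 24 h wildtype call was lost without unoperated wildtype array 2 (adjusted p = 0.0515). In Socs2-null the 24 h call was lost without unoperated array 2 (0.0634) or 24 h array 2 (0.0527), and the 36 h call without unoperated array 1 (0.0505) or 2 (0.0812) or 36 h array 1 (0.0667).

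Cpox, the mitochondrial coproporphyrinogen oxidase, was the 1 gene of the group called higher. It measured 246 and 259 in unoperated wildtype, 305 and 208 at 24 h and 738 and 469 at 36 h. In Socs2-null it measured 338 and 297 unoperated, 566 and 337 at 24 h and 398 and 637 at 36 h. Both 36 h wildtype arrays lay above the other 4 wildtype arrays, and in Socs2-null the 24 h and unoperated arrays overlapped while both 36 h arrays lay above the unoperated ones. The 36 h rise in wildtype was 2.25-fold (1.17 ± 0.30, adjusted p = 0.0268). In Socs2-null the 36 h change was 0.65 ± 0.30 (adjusted p = 0.162). The difference in the 36 h response between genotypes was -0.52 ± 0.42 (adjusted p = 0.999). The call in wildtype was lost without unoperated array 1 (adjusted p = 0.129) or 2 (0.123), without 36 h array 1 (0.131), with the mean of the gene's probe sets (0.0969) and with the hybridization controls as a covariate, where the change was 0.58 (adjusted p = 0.725). The hybridization controls moved with time, so that covariate and time cannot be told apart well. A second bright Cpox probe set changed by 0.41 ± 0.27 (adjusted p = 0.359). The dimmest was called higher in Socs2-null (adjusted p = 0.0158 for 24 h and 0.0389 for 36 h), from an unoperated level of 17.6 and 13.9 that lay under the brightest tag control.

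The remaining cytosolic enzymes and Ppox showed smaller differences, and none was called at any time. Alad, which joins aminolevulinate into the first pyrrole, lay between 1846 and 3008 on all 12 arrays, and its 4 changes from 0 h were between -0.07 and 0.05 with an SE of 0.20. Uros, which closes the porphyrin ring, measured 399 and 413 in unoperated wildtype, 303 and 334 at 24 h and 374 and 335 at 36 h. In Socs2-null Uros measured 349.6 and 317 unoperated, 332 and 269.8 at 24 h and 237 and 266 at 36 h. The operated wildtype arrays lay below the unoperated ones, as did the 36 h arrays of Socs2-null. Its changes were -0.34 ± 0.14 at 24 h in wildtype (adjusted p = 0.0888) and -0.39 ± 0.14 at 36 h in Socs2-null (adjusted p = 0.0681). Urod, the next decarboxylase, ranged from 718 to 804 on the 4 unoperated arrays and from 519 to 731 on the 8 operated ones, with changes of -0.36 ± 0.15 (adjusted p = 0.102) in wildtype and -0.27 ± 0.15 (adjusted p = 0.214) in Socs2-null at 24 h. Ppox, the oxidase before Fech, spanned 92.7 to 147 over all arrays. Its changes at 36 h were -0.26 ± 0.14 in wildtype (adjusted p = 0.245) and -0.29 ± 0.14 in Socs2-null (adjusted p = 0.185).

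Between 24 and 36 h none of the 9 genes passed limma's test in either genotype, beside 0.24% of all genes called in wildtype and 0.00585% in Socs2-null. At an unadjusted p under 0.05 there were 2 in wildtype, Cpox (1.17 ± 0.30, adjusted p = 0.144) and Fech (0.38 ± 0.16, adjusted p = 0.284), and 1 in Socs2-null, Ppox (-0.35 ± 0.14, adjusted p = 0.663). Over all 17097 genes, 2546 in wildtype and 1228 in Socs2-null lay under that cut, so these counts are near the share of all genes.

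Alas1 was set against each erythroid gene as a difference of log2 values within each array, which depends on the change and not on the unlike brightness of the probe sets. This difference includes the falls of Alas2 and Hba-a1 given above and does not test a rise of Alas1. Alas1 minus Alas2 averaged 1.26 ± 0.59 (SD, n = 4) on unoperated and 3.16 ± 0.81 (SD, n = 8) on operated arrays. The difference of 1.90 had p = 0.00889 in an exact two-sided permutation test within genotype (225 arrangements, smallest possible p = 0.00444), and 0.0356 after adjustment over the 4 tests of this kind. Alas1 minus Hba-a1 rose by 1.83, from -1.35 ± 0.59 to 0.48 ± 1.00, with an exact permutation p of 0.0222 (adjusted 0.0444). Unoperated and operated arrays overlapped in both measures, from 0.51 to 1.91 and 1.56 to 4.03 for Alas2, and from -2.20 to -0.88 and -1.29 to 1.62 for Hba-a1. Both calls were lost on leaving out any 1 of 8 arrays: either unoperated wildtype array, unoperated Socs2-null array 2, any operated wildtype array or 36 h Socs2-null array 2. The exact permutation p, adjusted, then lay between 0.0533 and 0.107 for Alas2, with differences from 1.55 to 1.98, and between 0.0533 and 0.133 for Hba-a1, with differences from 1.50 to 1.97. Fewer arrays also leave fewer arrangements. Between genotypes the same measures differed by -0.43 (exact permutation p = 0.417, adjusted 0.426) and -0.49 (0.426), over 216 arrangements within time.

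Comparing genotypes, none of the 9 genes was called at 0, 24 or 36 h or over the mean of the 3 times, where limma called 0%, 0.0117%, 0.0234% and 0.0292% of all genes. Over all 17097 genes, limma's unadjusted p was under 0.05 for 847 at 0 h, 1408 at 24 h, 1101 at 36 h and 1750 for the mean. Of the 9 genes there was 0 at 0 h, 1 at 24 h, 1 at 36 h and 1 for the mean, near these shares. The one at 24 h was Cpox, 0.76 ± 0.30 higher in Socs2-null (adjusted p = 0.563), whose arrays at 566 and 337 lay above the wildtype arrays at 305 and 208. The one at 36 h and in the mean was Uros, which was -0.47 ± 0.14 (adjusted p = 0.531) and -0.28 ± 0.08 (adjusted p = 0.308). The Uros arrays of the 2 genotypes did not overlap at 0 or 36 h and overlapped at 24 h. Alas2 differed by -0.21, -0.27 and -0.08, with an SE of 0.19, and its genotypes were apart at 0 and 24 h, lower in Socs2-null. Hba-a1 differed by 0.07, -0.23 and -0.22 with an SE of 0.19. At 0 h its 95% interval ran from -0.34 to 0.48, although its Socs2-null arrays, at 7135 and 7311, lay above both wildtype arrays. Alad at 0 h and Urod and Fech at 36 h were also apart and lower in Socs2-null. Cpox at 0 h and Ppox at 24 h were apart and higher. With 2 arrays a group, groups can lie apart without any difference, and the share of all genes apart was not counted. Socs2 itself was called lower for the mean of the 3 times (adjusted p = 0.0154) but not at 0, 24 or 36 h alone (adjusted p = 0.213, 0.404 and 0.236).

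**Figure D3:**
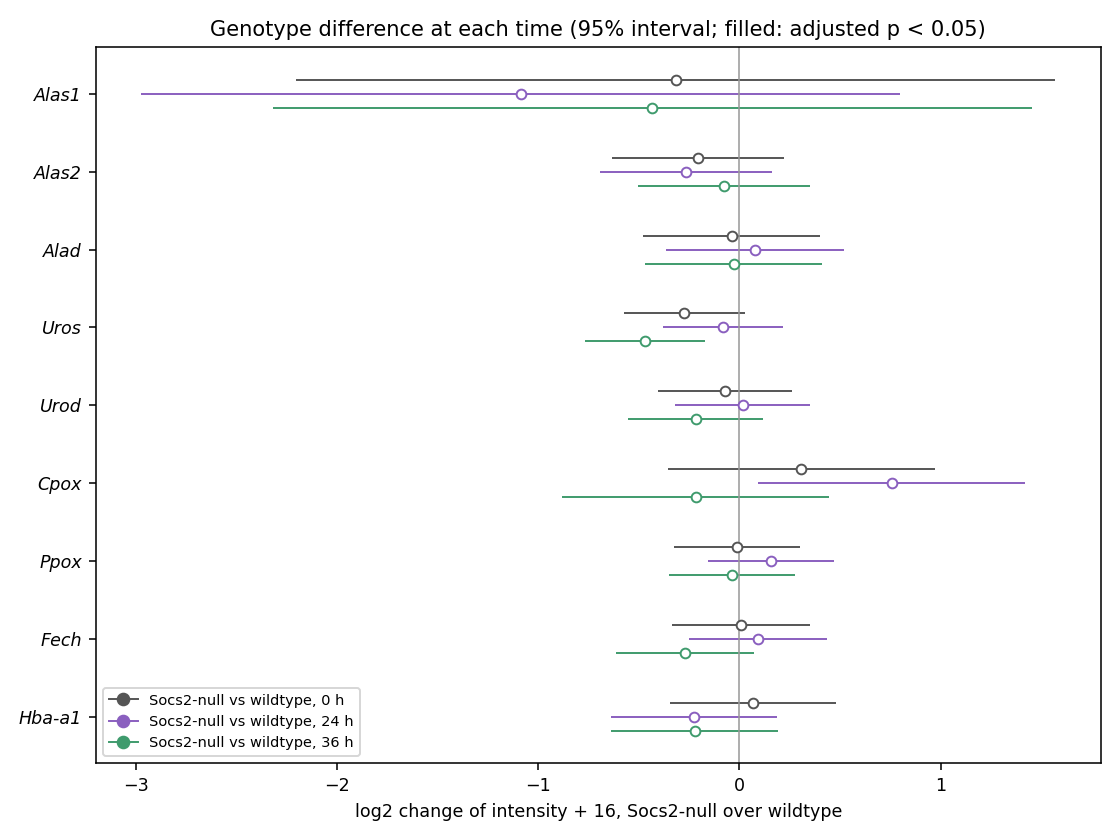
Log2 difference of intensity plus 16 between Socs2-null and wildtype at 0, 24 and 36 h for the 9 genes, with 95% intervals from limma. No point is filled, since no adjusted p is under 0.05, and the Alas1 interval at 24 h runs from -2.97 to 0.80.

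The response to hepatectomy was compared between genotypes directly, as the difference of the changes from 0 h. None of the 9 genes was called at 24 h (0% of all genes) or at 36 h (0.00585%), and none had an unadjusted p under 0.05 in limma. Over all 17097 genes, 646 at 24 h and 640 at 36 h lay under that cut. The estimates were -0.06 ± 0.28 and 0.13 ± 0.28 for Alas2, -0.29 ± 0.27 at both times for Hba-a1 and -0.77 ± 1.15 and -0.12 ± 1.15 for Alas1. The intervals are wide: for Alas2 at 24 h it ran from -0.66 to 0.54, and for Alas1 from -3.44 to 1.90.

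The spread of Alas1 between the 2 pools of a group was uneven. In Socs2-null the brighter array exceeded the dimmer 2.55-fold at 0 h, 4.98-fold at 24 h and 3.36-fold at 36 h, which ranked 25, 9 and 26 from the largest among 17097 genes. In wildtype the ratios were 1.15, 1.23 and 1.11, with ranks of 2231, 2652 and 8531, and the median gene had a ratio of 1.06 to 1.12 in the 6 groups. The dim arrays were Socs2-null array 2 at 0 h, array 1 at 24 h and array 2 at 36 h. No difference in spread between genotypes was tested. Among the other 8 genes the widest ratios were 1.65 for Cpox at 24 h and 1.62 for Alad at 36 h, both in Socs2-null. The genotype difference of Alas1 at 24 h was -1.09 ± 0.82, and over the alternative settings it ranged from -2.25 to 0.07, and it was positive in 1 of them, without Socs2-null array 1 at 24 h.

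**Figure D4:**
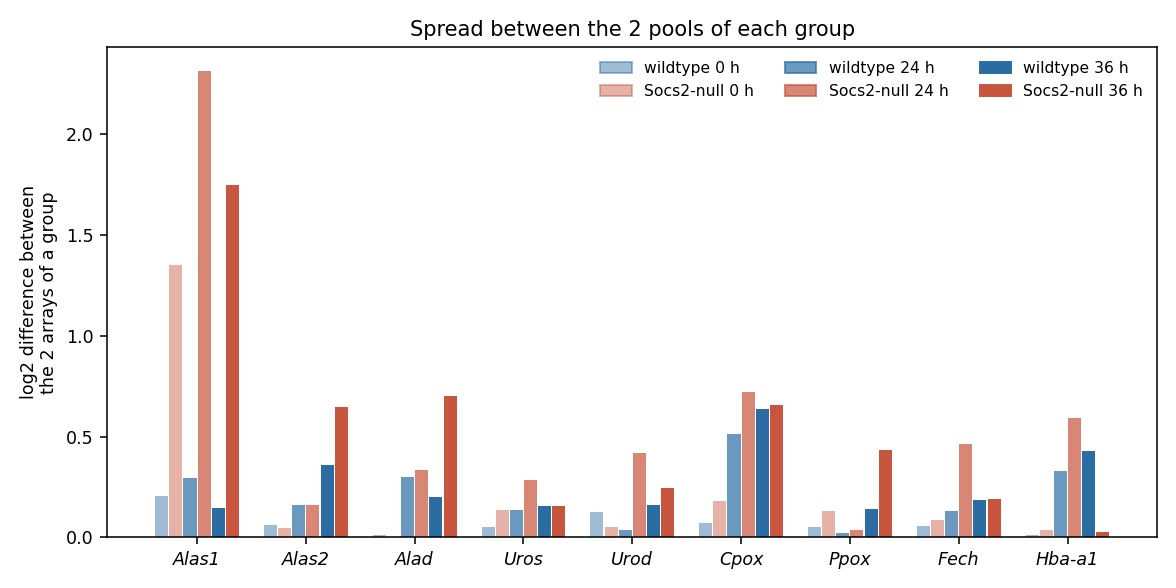
Absolute log2 difference of intensity plus 16 between the 2 arrays of each group for the 9 genes, wildtype in blue and Socs2-null in red, darker with time. The 3 Socs2-null bars of Alas1 reach 1.35, 2.32 and 1.75, while its wildtype bars stay at 0.29 or below.

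Alas2 and Hba-a1 were compared array by array among the 8 operated arrays, since the operated and unoperated arrays form separate clusters. Pearson's r was 0.51 (exact permutation p = 0.195, adjusted 0.314) and Spearman's rho 0.43 (exact permutation p = 0.299, adjusted 0.462), and r was 0.64 without the 2 arrays farthest from the median. For Alas1 with Alas2 r was 0.50 (exact permutation p = 0.209, adjusted 0.314), rho 0.40 (p = 0.327, adjusted 0.462) and r 0.23 without those arrays. For Alas1 with Hba-a1 r was -0.26 (exact permutation p = 0.525), rho -0.31 (p = 0.462) and r -0.45 without those arrays. None of the 3 relations passed the test. Within the 6 groups the same array was brighter for Alas2 and Hba-a1 in 3, and for Alas1 and Alas2 in 2.

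The genes most like each of the 3 in their pattern over the 12 arrays were ranked by Pearson's r among 7279 genes with a mean of at least 100, as a description. For Hba-a1 the first was Hbb-b2, a beta globin gene, at r = 0.990, which measured 4543 to 5275 on the unoperated and 1335 to 2481 on the operated arrays. It was followed by Hsd3b5 (0.988), Tlcd2 (0.987), Hsd3b2 (0.984) and Ypel3 (0.980). For Alas2 they were Slco1a1 (0.992), Apoe (0.991), Ttr (0.988), Phf20l1 (0.987) and Lhfpl2 (0.987); Slco1a1, Apoe and Ttr are known from hepatocytes. For Alas1 they were Myc (0.905), Rars2 (0.901), Nufip2 (0.901), Rnf40 (0.900) and Srrm1 (0.888). Myc measured 53.3 on the unoperated and 84.1 and 105 on the operated Socs2-null arrays where Alas1 was dim, against 140 to 339 on the other 9. All arrays share the split by operation, which raises r for any gene that changed with time.

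Some markers of erythroid cells were lower on the operated arrays, as were Alas2 and Hba-a1. The list of 25 erythroid genes includes Alas2 and Hba-a1. Of the 25, 21 were measured, and 19 remain besides Alas2 and Hba-a1. In wildtype 6 of the 19 fell at 24 h and 3 at 36 h, where 15.6% and 9.5% of all genes fell. In Socs2-null 7 and 3 fell, beside 13.5% and 10.1% of all genes. None was called higher. The counts of 3 at 36 h are near the share of all genes. Their median change was -0.30, -0.16, -0.32 and -0.20 for these comparisons in the order wildtype 24 and 36 h, Socs2-null 24 and 36 h. Klf1, an erythroid transcription factor, and Car1, the carbonic anhydrase of red cells, were called lower in all 4. Car1 measured 186 to 229.6 on the unoperated and 32.4 to 53.2 on the operated arrays and did not overlap (24 h wildtype, -1.89 ± 0.16, adjusted p = 5.42e-05). Klf1 measured 96.2 to 116 unoperated and 41.7 to 58.1 operated (24 h wildtype, -0.97 ± 0.12, adjusted p = 0.000681). At 36 h Car1 lay under the brightest tag control on wildtype array 1 (41.6 against 43.5) and Socs2-null array 2 (32.4 against 34.0). Operated Klf1 was above the tag controls but near them, so the sizes of both falls are uncertain. Ank1, a red cell membrane protein gene, fell at 24 h in wildtype (-0.53 ± 0.15, adjusted p = 0.0243) and in Socs2-null (-0.49 ± 0.15, adjusted p = 0.0328). The summed level of the 19 was 1425 to 1512 in unoperated wildtype and 1344 to 1422 in unoperated Socs2-null, and 933 to 1134 on the operated arrays. Of the 19, 7 lay under the brightest tag control on every array, Gata1, Rhag and Epb42 among them, so much of the list is near background. In tissue RNA, fewer erythroid cells or less blood and less RNA per cell cannot be told apart, and the part of either in the fall of Alas2 and Hba-a1 was not tested.

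**Figure D5:**
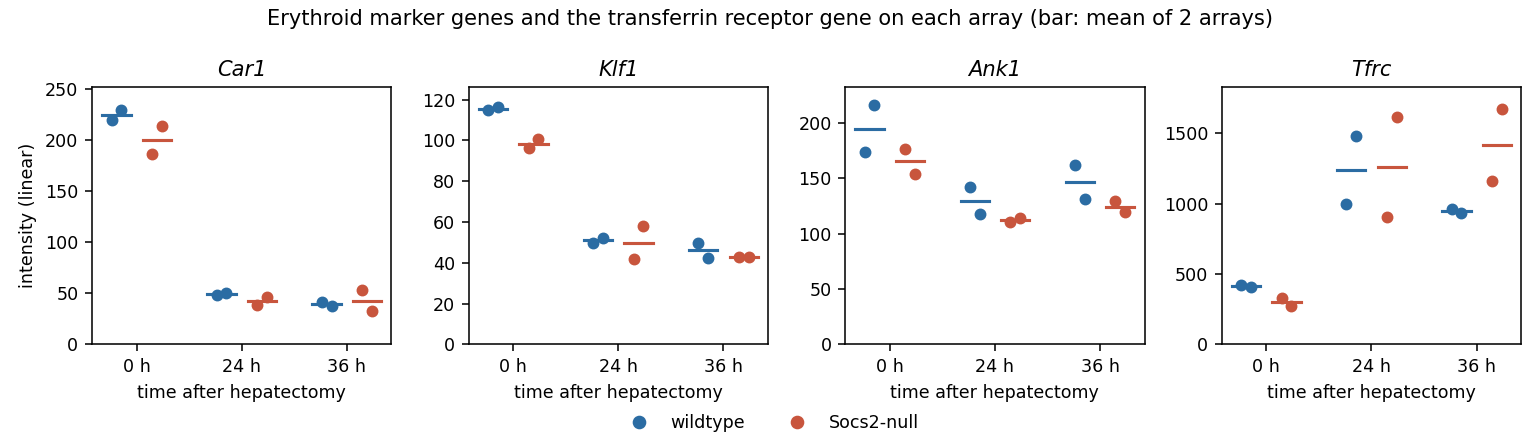
Linear intensity of the erythroid markers Car1, Klf1 and Ank1 and of the transferrin receptor gene Tfrc on each array by hours after hepatectomy, with a bar at the mean of 2 arrays. Car1 and Klf1 drop on all 8 operated arrays, whereas Tfrc lies between 276 and 425 on the unoperated and between 906 and 1670.0 on the operated arrays.

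Hepatocyte markers, which check the labelled tissue, summed to 122357 to 125436 on the unoperated and 111044 to 120045 on the operated arrays over 10 genes. Of the 13 Kupffer cell and macrophage genes, 2 rose and 2 or 3 fell in each of the 4 comparisons, Marco among the first and Clec4f among the second. Over all genes 5.69% to 10.8% rose and 9.5% to 15.6% fell, and counts this small are not read as a change of these cells. Neutrophil, platelet, lymphocyte and endothelial lists had between 0 and 2 members called in each direction, to be read against the same shares of all genes. The summed neutrophil level stood apart on Socs2-null 24 h array 2, at 1989 against 410 to 677 on the other arrays, and that array also had the lowest Hba-a1. Their part in the results was not tested.

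Genes that supply heme synthesis or carry heme moved in both directions. Of 15 measured, 3 rose and 2 fell at 24 h in wildtype, 1 rose and 1 fell at 36 h in wildtype, 2 rose and 3 fell at 24 h in Socs2-null and 2 rose and 4 fell at 36 h in Socs2-null. Over all genes, in the same order, 10.2%, 5.69%, 10.8% and 9.84% rose and 15.6%, 9.5%, 13.5% and 10.1% fell, so that several of these counts are near the share of all genes. Abcb10, a mitochondrial transporter of erythroid heme synthesis, fell in all 4, by 0.70 ± 0.17 at 24 h in wildtype (adjusted p = 0.0137). Abcb6, a porphyrin transporter, fell in 3 of them (24 h wildtype, -0.63 ± 0.17, adjusted p = 0.0195). Slc48a1, which moves heme out of endosomes, rose in all 4 (24 h wildtype, 0.74 ± 0.13, adjusted p = 0.00358), and Flvcr1, a heme exporter, rose in 3 (24 h Socs2-null, 0.81 ± 0.20, adjusted p = 0.0135). Slc25a28, a mitochondrial iron carrier, rose at 24 h in wildtype (0.94 ± 0.24, adjusted p = 0.0166). On the arrays where Alas1 was dim, Slc25a28 measured 186, 244 and 245, below the 225, 414 and 360 of the other Socs2-null arrays at the same times.

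Of 9 heme breakdown and scavenging genes measured, 3 rose and 1 fell at 24 h in wildtype, 2 rose at 36 h in wildtype, and 2 rose and 1 fell at each time in Socs2-null. Over all genes 10.2%, 5.69%, 10.8% and 9.84% rose at 24 and 36 h in wildtype and at 24 and 36 h in Socs2-null. In the same order 15.6%, 9.5%, 13.5% and 10.1% of all genes fell. The scavenger genes Hp (haptoglobin, 24 h wildtype 0.48 ± 0.07, adjusted p = 0.00157) and Cd163 (its macrophage receptor, 0.98 ± 0.16, adjusted p = 0.00216) rose in all 4. Hmox1, the heme oxygenase that degrades heme, measured 196 to 240.0 on the unoperated arrays, 1898 and 855 at 24 h in wildtype, 374 and 867 in Socs2-null, 255 and 525 at 36 h in wildtype and 1912 and 392 in Socs2-null. It was above the unoperated level on all 8 operated arrays and passed the test at 24 h in wildtype alone (2.41 ± 0.75, adjusted p = 0.0496). In the operated Socs2-null groups the array dim for Alas1 was also the dimmer for Hmox1. In unoperated Socs2-null the array dim for Alas1 was the brighter for Hmox1, at 223 against 196.

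Among 12 regulators linked to Alas1, Ppargc1b, a coactivator of mitochondrial genes, fell in all 4 comparisons (24 h wildtype, -1.52 ± 0.18, adjusted p = 0.00042). Foxo1 was called higher in 3 (24 h wildtype, adjusted p = 0.0469), but its 4 unoperated arrays, at 22.5 to 24.4, lay under the brightest tag control, so no size is given. Nr1i2, the xenobiotic receptor PXR, rose at 36 h in wildtype (0.97 ± 0.14, adjusted p = 0.00127) and in Socs2-null (0.46 ± 0.14, adjusted p = 0.0351). Npas2, a clock gene, was called higher in Socs2-null (24 h, adjusted p = 0.00236), from 20.7 and 14.99 unoperated, also under the brightest tag control, to 108 and 51.2. Over the list 1, 2, 1 and 4 rose and 2, 2, 1 and 1 fell in wildtype at 24 and 36 h and Socs2-null at 24 and 36 h, to be read against the shares of all genes given above.

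Among 10 genes of iron uptake and iron-sulfur cluster assembly, which supply Fech with iron and its cluster, 1 to 2 rose and 2 to 4 fell in each comparison. Over all genes 5.69% to 10.8% rose and 9.5% to 15.6% fell, so that some of these counts are near the share of all genes. Tfrc, the transferrin receptor gene, rose in all 4 (24 h wildtype 1.51 ± 0.27, adjusted p = 0.00361; 36 h Socs2-null 2.15 ± 0.27, adjusted p = 0.000563) although it is also used by erythroid precursors. Fdx1, a ferredoxin (-0.91 ± 0.11, adjusted p = 0.000529), and Nfs1, the cysteine desulfurase (-0.41 ± 0.12, adjusted p = 0.0253), fell at 24 h in wildtype and in the other 3 comparisons.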

How the data were processed

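The deposited values are intensities, processed by the authors and given for 45141 probe sets on each of 12 arrays; the labels state 10 micrograms of RNA pooled from 3 animals for each array. How the authors corrected, summarized and normalized them is not given in the sources used here. Precision is limited by the number of arrays.

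The platform annotation names exactly 1 gene for 28898 of the probe sets, more than that for 551, and leaves 15588 unnamed, beside 104 controls. Values were used as log2(value + 16), with no filter or further scaling. A group-means model over all 12 arrays (6 residual degrees of freedom) was fitted with limma 3.58.1 in R 4.3.3 (eBayes, trend and robust), two-sided, with Benjamini-Hochberg adjustment over 17097 genes, for 12 comparisons. It was tested on simulated data. Exact permutations used Python 3.11.15. Named genes are all 9 members and, of other lists, genes past the threshold; of those the text names a part, in most lists those called in the most comparisons, and 5 genes of most similar pattern are given for 3 members. Correlations were limited to the 8 operated arrays after the values were seen. Members and lists were chosen with earlier results of these data known. Same-numbered arrays were checked for pairing. The 2 pools of a group are biological replicates per the labels, and p-values measure the spread between pools. Fech sequence is not used here.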

Additional observations from a re-analysis of the deposited data

Results flagged for a closer look

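Uros moved in opposite ways between 24 and 36 h. Its log2 change was 0.15 in wildtype, where both 36 h arrays lay above both 24 h arrays, and -0.24 in Socs2-null, where both lay below. Neither change was called, and the difference between them was not tested.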

How the results depend on the processing

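The results were recomputed under 26 alternatives, 12 of them leaving out 1 array in turn; testing all probe sets separately was chosen after seeing the data. None of the 12 called single-gene results changed sign, while 51 of the uncalled ones, of 108 single-gene results in all, had the other sign under some alternative. Members called at 24 h in wildtype numbered 3, but 1 without probe sets whose names end in _s_at, _x_at or _a_at. They numbered 5 with array weights, a setting that called 6509 genes over the whole array against 4417 as reported. With the hybridization controls as a covariate there were 5, and with only the arrays compared 6. At 36 h in wildtype 1 was called with that covariate, which called 532 genes over the whole array against 2597 as reported. For the other settings the genes called over the whole array are given only as a range below. In Socs2-null 1 was called at 24 h and 1 at 36 h without the probe sets with those name endings. Leaving these probe sets out removes Alas2 and Hba-a1 by construction. The cause of the other shifts was not tested. Leaving out 1 array gave 2 to 3, 2 to 4, 2 to 4 and 2 to 4 called members for wildtype at 24 and 36 h and Socs2-null at 24 and 36 h, 0 for every comparison of genotypes or of 36 with 24 h, 1.55 to 2.25 for the operated difference of Alas1 minus Alas2 and 1.50 to 2.16 for Alas1 minus Hba-a1. The replicate numbers did not pair the arrays (r from -0.50 to 0.35 over 15 pairs of groups, 3 above 0.1), and the fit with the replicate number as a block gave 3 called members in each of the 4 comparisons with 0 h and 0 in the rest. For single genes, 6 results lost a call and 8 gained one under some alternative. Genes called over the whole array ranged from 1359 to 6509 (4417 as reported) for 24 h in wildtype, 532 to 3600 (2597) at 36 h, and in Socs2-null from 2014 to 4333 (4146) and 1424 to 3949 (3415). Centring arrays on their medians moved the median change at 24 h in wildtype from -0.08 to 0.04 and the share of calls that were higher from 39.7% to 65.3%, from 37.5% to 53.4% at 36 h and from 44.5% to 60.6% in Socs2-null at 24 h. Signal near the tag controls limits 3 of the 18 probe sets and much of the erythroid list.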
